A study of Homo sapiens with 6 samples.

Results

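The extracellular matrix genes and matrix receptors of NCI-N87, an established human line of gastric cancer cells, were examined as 44 genes, taken by gene name from the 58735 genes of the deposited count table. They comprised 7 matrix glycoproteins and matricellular proteins, 3 genes that degrade matrix or hyaluronan, 6 laminin chains, 3 further basement membrane proteins, 10 collagen chains, 11 integrin subunits, 3 other receptors and vimentin. The EGLN3 cells carried the plasmid PLVX-IRES-Puro-EGLN3, and the control cells carried the empty PLVX-IRES-Puro plasmid. Both groups were kept in puromycin for 7 days, which selects for the plasmid. The labels give 1 day with the plasmid for 5 libraries and 5 days for EGLN3 replicate 3. There were 3 libraries of each group, all from 1 cell line, and the labels name neither the promoter that drives EGLN3 nor separate cultures. The p-values therefore measure only how these libraries spread, and that spread may be technical.

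Epithelial cells rest on a basement membrane, a sheet of laminins, type IV collagen, nidogens and heparan sulfate proteoglycans. Integrins, each a dimer of an alpha and a beta chain, grip this sheet and the looser interstitial matrix, and pass force to the actin or keratin cytoskeleton. Hemidesmosomes, which pair the integrin chains ITGA6 and ITGB4 with a laminin that holds LAMA3 and LAMB3, anchor epithelia most firmly. Fibrillar collagens, fibronectin and tenascin C belong mainly to the stroma, although carcinoma cells can make some of them. EGLN3 is an oxygen-dependent prolyl hydroxylase that marks hypoxia-inducible factor alpha chains for degradation, and collagens carry hydroxyproline put there by other prolyl hydroxylases.

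EGLN3 had 481, 1640 and 1720 CPM, which are counts scaled by library size, in EGLN3 replicates 1, 2 and 3, against 0.582, 0.702 and 0.565 CPM in control replicates 1, 2 and 3. Replicate 1 thus held the least EGLN3 of its group. Library totals ran from 15157265 to 16767383 counts. The first principal component of the libraries took 70% of the variance and did not separate the groups: EGLN3 replicate 1 lay at 59.4 and control replicate 3 at 34.4, while EGLN3 replicate 3 lay at -45.9 and control replicate 1 at -36.2. Epithelial markers summed to 5930 to 11700 FPKM in the EGLN3 libraries and 6890 to 9700 FPKM in the control libraries, with all 8 detected. Fibroblast markers summed to 2.62 to 3.54 FPKM in the EGLN3 libraries and 2.86 to 3.35 FPKM in the control libraries, with COL1A2, LUM and POSTN of the 12 at 0 in all libraries. Endothelial markers summed to at most 0.243 FPKM in the EGLN3 libraries and 0.235 FPKM in the control libraries, and immune markers to at most 2.28 FPKM and 2.46 FPKM in the same order of groups.

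What the line expressed was judged from the deposited FPKM, which divide counts by the deposited gene length. Levels of different genes can be set side by side only roughly, because they rest on the deposited length of each gene. Libraries also differed in their trends with length and base composition. Of the 44 genes, 9 averaged at least 50 FPKM over the 6 libraries, 18 at least 10 FPKM and 32 at least 1 FPKM, and the other 12 stayed under 1 FPKM. The 9 highest were LAMB3, SDC1, SDC4, AGRN, ITGA6, ITGB4, ITGB1, TGFBI and ITGA3. The 12 lowest were 8 collagen chains, type IV chains among them, with SPARC, NID1, MMP7 and VIM. The plot of FPKM by gene shows the 40 tested genes in each library.

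**Figure D1:**
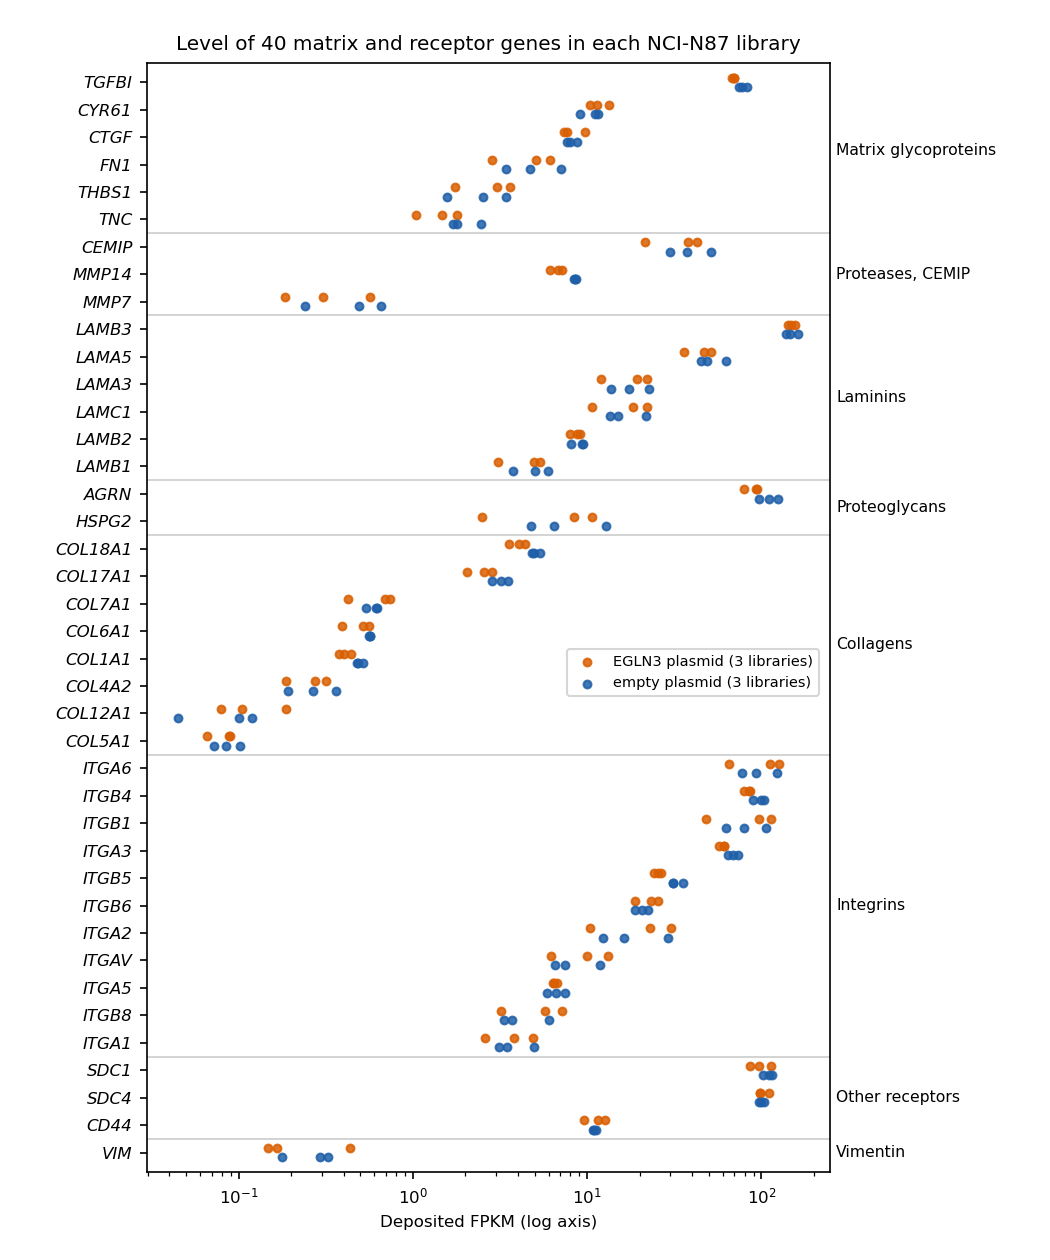
Deposited FPKM (log axis) of the 40 tested genes in each of the 3 EGLN3 libraries (orange) and the 3 control libraries (blue), grouped by role and ordered by mean level. LAMB3 is highest, with 142 to 155 FPKM in the EGLN3 libraries and 138 to 163 FPKM in the control libraries, and 6 of the 8 collagens shown average under 1 FPKM.

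Among the 6 laminin chains examined, LAMB3, the beta chain of hemidesmosomal laminin, was the highest of all 44 genes. It had 155, 148 and 142 FPKM in the EGLN3 libraries, against 146, 163 and 138 FPKM in the control libraries. It ranked 227 among all genes by mean FPKM. LAMA5, an alpha chain of epithelial basement membranes, followed with 36.1, 46.7 and 51.3 FPKM in the EGLN3 libraries, against 62.3, 48.6 and 45 FPKM in the control libraries. LAMA3 averaged 17.8 FPKM, LAMC1 16.9 FPKM, LAMB2 8.76 FPKM and LAMB1 4.68 FPKM, so each of the 6 laminin chains examined exceeded 1 FPKM. In the whole family, 7 of 12 laminin genes averaged at least 1 FPKM. LAMB3 thus stood above LAMA3, with which it assembles, on the FPKM scale, where the deposited lengths were 4688 and 14678 bases. In counts the gap was narrower. LAMB3 had 11025, 11805 and 10824 counts in the EGLN3 libraries and 11932, 12042 and 10433 counts in the control libraries. LAMA3 had 2670, 4832 and 5248 counts in the EGLN3 libraries and 5766, 4018 and 3244 counts in the control libraries.

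All 11 integrin subunits examined averaged more than 1 FPKM, led by receptors of laminin. ITGA6, the laminin-binding alpha chain of hemidesmosomes, had 65.2, 112 and 126 FPKM in the EGLN3 libraries, against 123, 92.7 and 77 FPKM in the control libraries. Its partner ITGB4 had 79.2, 85.4 and 84.8 FPKM in the EGLN3 libraries, against 104, 99.6 and 89.6 FPKM in the control libraries. The ranges of these partners overlapped, so their levels could not be ordered beyond the spread between libraries. ITGB1, the beta chain shared by most matrix integrins, averaged 84.1 FPKM, and ITGA3, another laminin receptor chain, averaged 64 FPKM.

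Further down came ITGB5, a vitronectin receptor chain that pairs with ITGAV, at 28.9 FPKM. ITGB6, an epithelial chain that also pairs with ITGAV and activates latent TGF-beta, averaged 21.5 FPKM. The collagen receptor chain ITGA2 averaged 20.1 FPKM and ITGA1, another collagen receptor chain, 3.8 FPKM. The level of ITGA1 is uncertain, because PELO lies within its bounds on the same strand. ITGAV averaged 9.18 FPKM, the fibronectin receptor chain ITGA5 6.59 FPKM and ITGB8 4.88 FPKM. Outside the 11, ITGB7, ITGA7 and ITGAE averaged 3.41, 1.83 and 1.55 FPKM, and ITGB3, the platelet and endothelial partner of ITGAV, averaged 0.0251 FPKM. ITGB7, ITGA7 and ITGAE overlap ZNF740, METTL7B and HASPIN on the other strand. The strand setting of the counting was not given, so some of their reads may belong to those genes. In all, 14 of 26 integrin genes averaged at least 1 FPKM.

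Other receptors were also abundant. SDC1 and SDC4, heparan sulfate proteoglycans of the cell surface, averaged 104 and 101 FPKM, close to ITGA6 at 99.4 FPKM and AGRN at 99.6 FPKM, and the library ranges of these 4 genes overlapped. CD44, the hyaluronan receptor, averaged 11.1 FPKM. AGRN encodes agrin, a basement membrane proteoglycan, and had 79.7, 94.5 and 92.7 FPKM in the EGLN3 libraries, against 125, 110 and 96.3 FPKM in the control libraries. HSPG2, which encodes perlecan, was far lower, with 2.49, 8.35 and 10.6 FPKM in the EGLN3 libraries, against 12.8, 6.43 and 4.73 FPKM in the control libraries. The widest spread over libraries of the 40 tested genes on the CPM scale, 5.24-fold from lowest to highest, was that of HSPG2. NID1, the linker protein nidogen, had few reads, with 0, 3 and 2 counts in the EGLN3 libraries and 3, 2 and 4 counts in the control libraries.

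Collagens were low as a class. COL18A1, a basement membrane collagen, averaged 4.52 FPKM, and COL17A1, the transmembrane collagen of hemidesmosomes, averaged 2.84 FPKM. The other 8 stayed under 1 FPKM: COL7A1, which forms anchoring fibrils beneath the epithelium, reached 0.604 FPKM, COL6A1 0.527 FPKM and COL1A1 0.45 FPKM, while COL4A2, COL12A1 and COL5A1 averaged 0.267, 0.106 and 0.0838 FPKM. COL4A1 had 0, 3 and 4 counts in the EGLN3 libraries and 2, 2 and 3 counts in the control libraries. COL6A2 had 8, 0 and 1 counts in the EGLN3 libraries and 3, 0 and 5 counts in the control libraries. COL1A2, the partner chain of COL1A1, had no count in any library. Over all 44 collagen genes, 5 averaged at least 1 FPKM, led by the cartilage-type chain COL9A3 at 7.76 FPKM, with COL27A1 at 1.39 FPKM and COL16A1 at 1.07 FPKM. COL9A3 overlaps TCFL5 on the other strand, so some of its reads may belong to that gene.

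Among the glycoproteins, TGFBI, a secreted adhesion protein induced by TGF-beta, was highest at 73.6 FPKM. CYR61 and CTGF, matricellular proteins whose genes respond to the YAP and TEAD factors, averaged 11.1 and 8.2 FPKM. FN1, fibronectin, averaged 4.86 FPKM, THBS1, thrombospondin 1, 2.65 FPKM and TNC, tenascin C, 1.71 FPKM. SPARC, a collagen-binding protein of stroma, had 1, 0 and 1 counts in the EGLN3 libraries and 0, 3 and 1 counts in the control libraries. CEMIP, which takes part in hyaluronan breakdown, averaged 36.8 FPKM, MMP14, a membrane-anchored collagenase, 7.61 FPKM and MMP7, matrilysin, 0.407 FPKM. VIM, the mesenchymal intermediate filament vimentin, averaged 0.258 FPKM, with 0.433, 0.148 and 0.167 FPKM in the EGLN3 libraries, against 0.177, 0.294 and 0.326 FPKM in the control libraries. SPARC, NID1, COL4A1 and COL6A2 did not pass the filter on low counts, which left 40 of the 44 genes and 15726 of all genes tested.

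Libraries of the same group differed for many of the 40 tested genes. EGLN3 replicate 1 was the lowest library for 25 of the 40 genes (62.5%), against 31.2% of all tested genes. The median deviation of the 40 genes from their own mean over the libraries was -0.27, 0.04 and -0.01 on the log2 scale in EGLN3 replicates 1, 2 and 3, and 0.24, 0.06 and -0.09 in control replicates 1, 2 and 3. EGLN3 replicate 1 thus stood low and control replicate 1 high for these genes. Along the first principal component 28 of the 40 (70%) were lower toward EGLN3 replicate 1, against 50% of all tested genes. The highest library was control replicate 1 for 13 genes, EGLN3 replicate 3 for 10, control replicate 2 for 9, EGLN3 replicate 1 for 5 and control replicate 3 for 3. The heat map of deviations shows these columns.

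**Figure D2:**
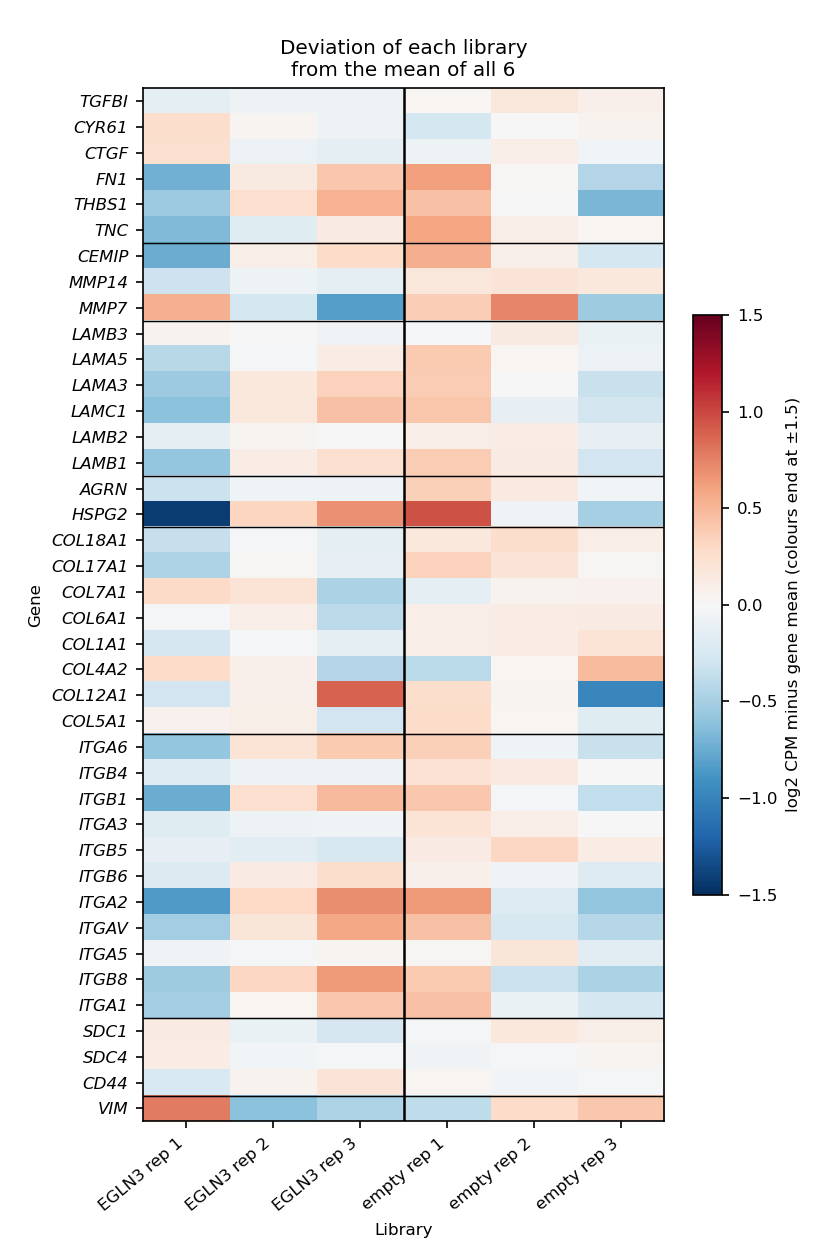
Deviation of each library from the gene's own mean over the 6 libraries (log2 CPM, colour scale), with EGLN3 replicates 1 to 3 left of the line and control replicates 1 to 3 right of it. EGLN3 replicate 1 is the lowest library for 25 of the 40 genes.

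Gene length and base composition went with this axis. The 40 genes had a median length of 8025 bases, against 4452 bases over all tested genes, and a median GC content of 52.3%, against 48.8%. Across genes, Spearman's rho of length with the loading on the first component was -0.469 for the 40 genes and -0.448 for all 15726, where genes share the same 6 libraries and are not independent. For GC content rho ran the other way, at 0.406 for the 40 genes and 0.358 for all 15726. Longer genes thus tended to be lower toward EGLN3 replicate 1, and GC-rich genes higher. ITGA2 shows the pattern, with 82.6, 182 and 242 CPM in the EGLN3 libraries, against 232, 129.9 and 98.3 CPM in the control libraries, and ITGB1 likewise had 292, 583 and 688 CPM in the EGLN3 libraries, against 646, 481 and 380.1 CPM in the control libraries. For either gene the range of one group lay largely inside that of the other. LAMB3, in contrast, had 727, 699.7 and 676 CPM in the EGLN3 libraries, against 694, 769 and 655 CPM in the control libraries, and SDC4 had 288, 259 and 262 CPM in the EGLN3 libraries, against 257, 261 and 275 CPM in the control libraries. Over the 40 genes the median ratio of the highest to the lowest library was 1.74, against 1.7 over all genes, and 13 of the 40 (32.5%) varied by at least 2-fold, against 33.6%.

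The comparison of EGLN3 with control cells asked which of these genes fall with EGLN3. These genes were chosen with earlier results of these data known. Their counts beside the shares over all genes, here and below, are therefore a description and not a test. edgeR's quasi-likelihood test without correction called none of the 40, with adjusted p = 1 for each, and over all tested genes it called 0% lower and 0.00636% higher (EGLN3 alone). At an unadjusted p under 0.05, 3 of the 40 were lower (ITGB5, MMP14 and COL18A1) and 0 were higher, against 0.649% lower and 0.458% higher over all genes. Of the 40 log2 fold changes 26 were negative and 14 positive, against 47.8% negative over all genes. Their median was -0.09, against 0.01 over all genes. By role, the median was -0.35 for the 3 degrading genes, -0.24 for the 2 proteoglycans, -0.15 for the 8 collagens, -0.05 for the 6 glycoproteins, -0.04 for the 6 laminins, 0.03 for the 3 other receptors and 0.05 for the 11 integrins. In bulk RNA, fewer cells of a kind and less RNA per cell cannot be told apart.

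The scaled CPM of all 3 EGLN3 libraries lay below all 3 control libraries for 10 of the 40 genes and above them for 0, while 3.62% of all tested genes lay below and 2.64% above. These 10 were TGFBI, MMP14, AGRN, COL1A1, COL6A1, COL17A1, COL18A1, ITGA3, ITGB4 and ITGB5. For COL6A1 the gap was from 3.023 CPM in EGLN3 replicate 2 to 3.026 CPM in control replicate 1, and for COL17A1 both EGLN3 replicate 2 and control replicate 3 came to 20.27 CPM. With RLE scaling 8 genes lay below, without COL6A1 and COL17A1, against 3.29% of all genes. GC content moved with this set: the 10 genes had a median GC content of 61.2% and the other 30 tested genes 49.1%. Spearman's rho between GC content and log2 fold change was -0.573 across the 40 genes and -0.476 across all tested genes. With each library's trends on GC content and length taken out, 5 genes lay below in every EGLN3 library (TNC, MMP14, COL17A1, ITGA1 and ITGB5) and CYR61 lay above, against 3.34% and 3.41% of all genes. MMP14, COL17A1 and ITGB5 were in both sets.

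**Figure D3:**
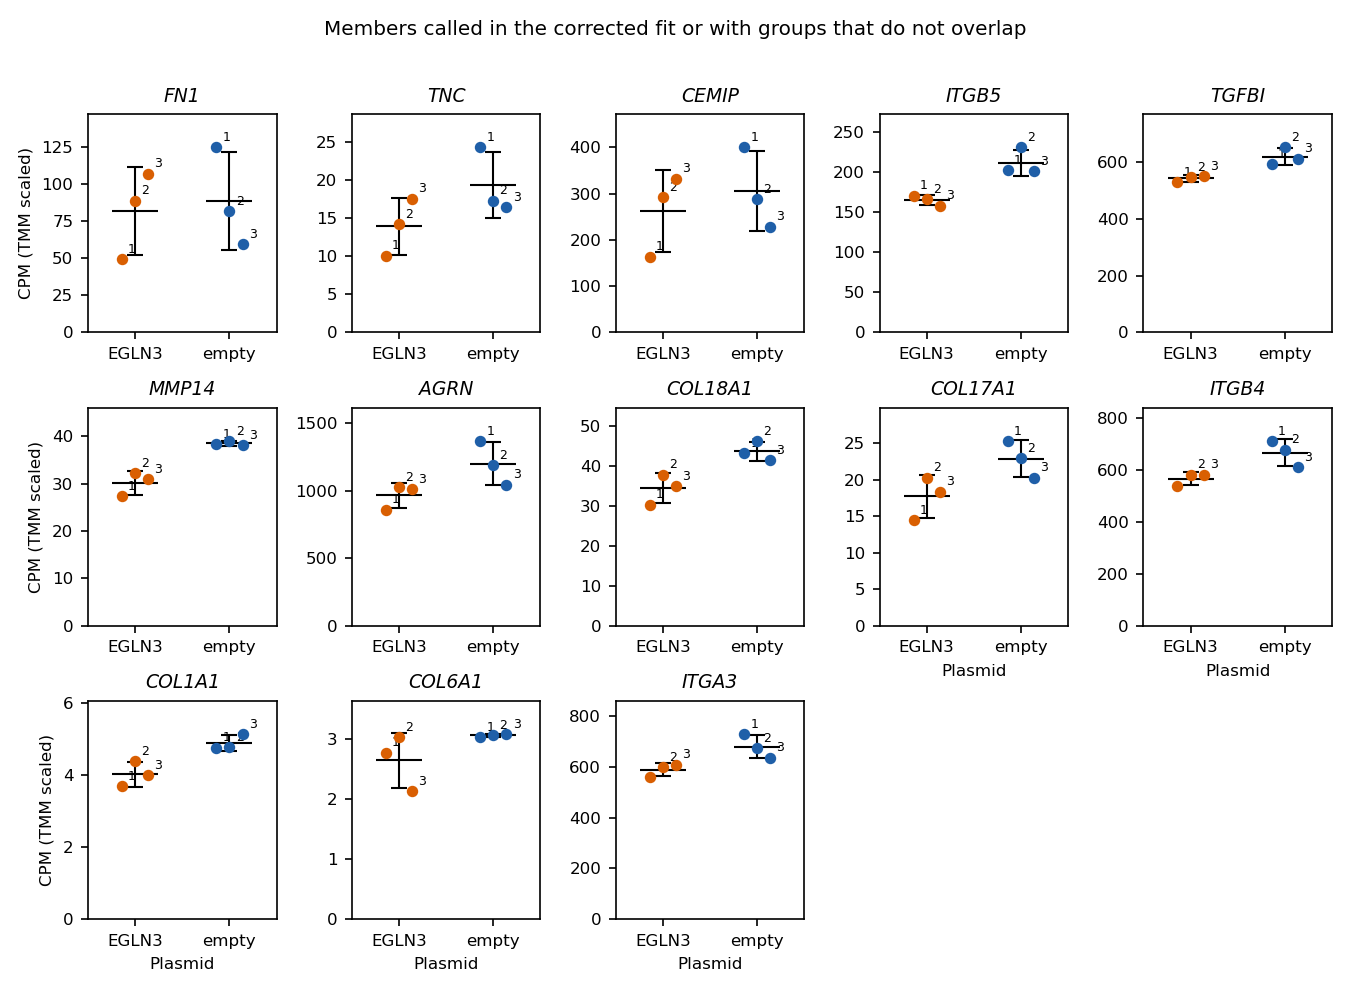
TMM-scaled CPM of 13 genes in the 3 EGLN3 libraries (orange, left) and the 3 control libraries (blue, right), with replicate numbers, group means (long bars) and SD (error bars). For ITGB5 the EGLN3 libraries lie between 158 and 171 CPM and the control libraries between 201 and 231 CPM, while the groups overlap for FN1, TNC and CEMIP.

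A second fit, termed the corrected fit here, carried 1 surrogate variable and offsets for each library's GC content and length trends. It brought the common dispersion to 0.0021, against 0.0589 without correction. It called 4 of the 40 genes lower and 0 higher at an adjusted p under 0.05, against 0.674% lower and 0.375% higher over all tested genes. The 4 were ITGB5, CEMIP, TNC and FN1. At an unadjusted p under 0.05 it had 15 lower and 3 higher, against 7.47% and 5.6% of all genes, and 26 of the 40 log2 fold changes were negative, against 50.9%. Their median was -0.06, against 0 over all genes. The rho of GC content with log2 fold change was -0.0602 across the 40 genes in this fit. The variable and the trends were estimated from the same 6 libraries, so its SEs and p-values may be too small. This fit and the genes were both chosen with earlier results of these data known. An excess of calls over the share of all genes is therefore no independent support.

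The calls depended on the correction and on single libraries. Leaving out EGLN3 replicate 1 left 1 call (FN1), leaving out EGLN3 replicate 2 left 2 (CEMIP and ITGB5), and leaving out EGLN3 replicate 3 left 2 (TNC and ITGB5). Calls were also gained: TGFBI (adjusted p = 0.017) and HSPG2 (0.018) without control replicate 1, AGRN (0.036) without control replicate 2 and again (0.042) without control replicate 3, each lower, and LAMB3 (0.021) higher without control replicate 2, by the edgeR quasi-likelihood test. With the surrogate variable alone 13 of the 40 genes were called, each lower, against 3.46% lower and 1.07% higher over all genes. With the trends alone 0 were called, and over all genes 0% were called lower and 0.00636% higher. Beyond the 4 called genes, AGRN and TGFBI came nearest, with adjusted p = 0.0504 and 0.0543 by the edgeR quasi-likelihood test in the corrected fit. ITGA1 had 0.0679, HSPG2 0.076, MMP14 0.0844 and COL17A1 0.0857.

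**Figure D4:**
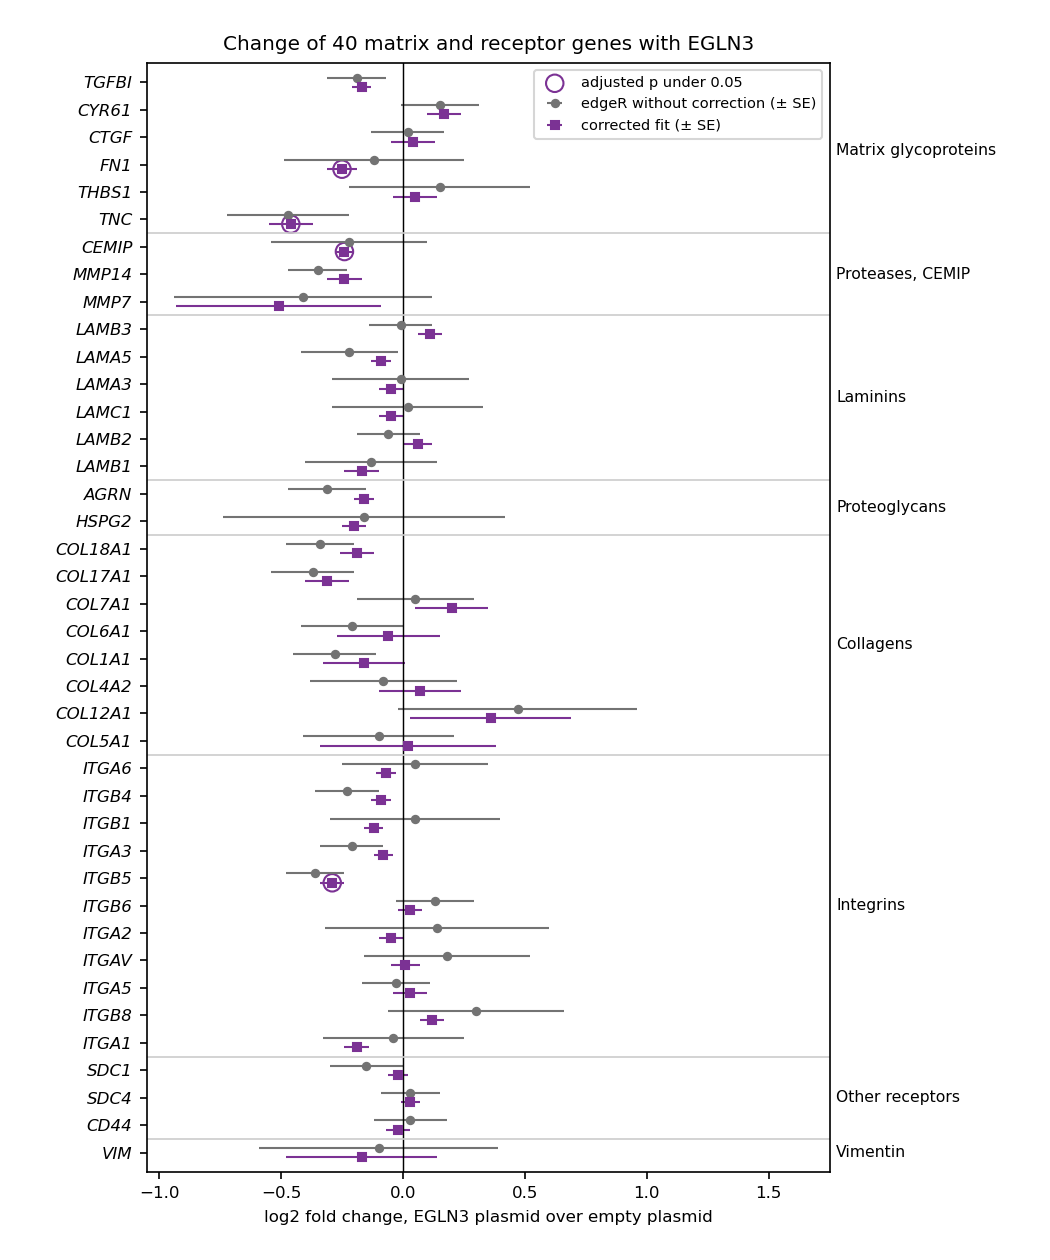
Log2 fold change, EGLN3 over control, of the 40 tested genes in the edgeR fit without correction (grey circles) and in the corrected fit (purple squares), with SE as error bars. Rings mark the 4 genes with an adjusted p under 0.05 in the corrected fit, all below 0: FN1, TNC, CEMIP and ITGB5.

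ITGB5, which joins ITGAV to bind vitronectin, was the one gene of the 40 that was called in the corrected fit and also kept its groups apart before and after the trends were taken out. With the trends taken out it had 186.9, 164.1 and 155.3 CPM in the EGLN3 libraries, against 189.6, 226.6 and 206.5 CPM in the control libraries. On that scale replicate 1 of either group nearly touched the other. Before the trends were taken out ITGB5 had 171, 166 and 158 CPM in the EGLN3 libraries, against 203, 231 and 201 CPM in the control libraries. Every EGLN3 library was below every control library, and the means were 165 ± 6.44 CPM in the EGLN3 libraries and 212 ± 16.7 CPM in the control libraries (SD, n = 3 each). The log2 fold change was -0.36 (SE 0.12) without correction. In the corrected fit it was -0.29 (SE 0.05), a fall of 18.4% with adjusted p = 0.00178 by the edgeR quasi-likelihood test. Leaving out EGLN3 replicate 1 gave adjusted p = 0.056, and leaving out any other library kept the call.

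CEMIP had 164, 292 and 332 CPM in the EGLN3 libraries, against 399.6, 288 and 229 CPM in the control libraries. The groups overlapped widely, and within each group the lowest and highest libraries were those at opposite ends of the first principal component. The log2 fold change was -0.22 (SE 0.32) without correction and -0.24 (SE 0.04) in the corrected fit, with adjusted p = 0.00375 by the edgeR quasi-likelihood test. Without EGLN3 replicate 1 or replicate 3 the adjusted p was 0.093 or 0.11. CEMIP overlaps MESD on the other strand over 5488 bases. The strand setting of the counting is an item not given in the sources used here, so reads of this stretch may belong to either gene, and MESD itself had a corrected log2 fold change of -0.06 (SE 0.05).

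TNC had 10.1, 14.2 and 17.6 CPM in the EGLN3 libraries, against 24.3, 17.3 and 16.5 CPM in the control libraries. Only EGLN3 replicate 3 lay above any control library, and with the trends taken out the EGLN3 libraries had 12.5, 13.5 and 15.5 CPM, against 20.4, 17.7 and 18.5 CPM in the control libraries. Among the 4 called genes it had the largest fall, -0.46 (SE 0.09) on the log2 scale in the corrected fit with adjusted p = 0.012 by the edgeR quasi-likelihood test, and -0.47 (SE 0.25) without correction. The adjusted p was 0.085 without EGLN3 replicate 1, 0.09 without EGLN3 replicate 2 and 0.068 without control replicate 1.

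FN1 had 49.2, 88.9 and 107 CPM in the EGLN3 libraries, against 125, 82.0 and 59.6 CPM in the control libraries, so both groups covered much the same range and control replicate 3 stood low. Its log2 fold change was -0.12 (SE 0.37) without correction and -0.25 (SE 0.06) in the corrected fit, with adjusted p = 0.0268 by the edgeR quasi-likelihood test. The call held with EGLN3 replicate 1 or control replicate 3 left out, and was lost with any of the others left out. The adjusted p was 0.34 without EGLN3 replicate 3, 0.11 without EGLN3 replicate 2, 0.14 without control replicate 1 and 0.06 without control replicate 2. Without the correction the sign itself turned, to 0.21 without EGLN3 replicate 1.

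Because these 4 genes were called in 1 direction, the 300 bases from 250 before to 50 after their RefSeq start sites are shown, from build GRCh38.p14, 5′ to 3′ on the gene's own strand. They lie at chr2:215436019-215436318 (minus strand) for FN1, chr9:115118108-115118407 (minus strand) for TNC, chr15:80779120-80779419 (plus strand) for CEMIP and chr3:124887316-124887615 (minus strand) for ITGB5. The genes themselves span, in the count table, 215360440 to 215436172 on chromosome 2 (FN1), 115019578 to 115118257 on chromosome 9 (TNC) and 80779343 to 80951776 on chromosome 15 (CEMIP). The window of ITGB5 is an annotated start inside the gene as the count table gives it, which spans 124761948 to 124901418 on chromosome 3. Capitals mark GC boxes, the letters GGGCGG on either strand, where neighbouring matches may share letters.
FN1: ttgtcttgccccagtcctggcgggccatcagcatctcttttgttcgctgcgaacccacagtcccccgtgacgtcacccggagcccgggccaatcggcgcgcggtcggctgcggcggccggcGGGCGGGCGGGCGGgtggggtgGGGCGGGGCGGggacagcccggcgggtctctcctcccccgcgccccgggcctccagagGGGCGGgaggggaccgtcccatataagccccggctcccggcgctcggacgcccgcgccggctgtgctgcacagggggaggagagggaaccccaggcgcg
TNC: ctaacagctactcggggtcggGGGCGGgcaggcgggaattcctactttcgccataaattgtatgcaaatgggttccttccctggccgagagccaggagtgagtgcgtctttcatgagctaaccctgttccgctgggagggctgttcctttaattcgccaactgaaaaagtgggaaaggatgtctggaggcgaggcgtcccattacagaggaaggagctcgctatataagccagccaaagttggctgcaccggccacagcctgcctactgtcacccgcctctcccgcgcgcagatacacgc
CEMIP: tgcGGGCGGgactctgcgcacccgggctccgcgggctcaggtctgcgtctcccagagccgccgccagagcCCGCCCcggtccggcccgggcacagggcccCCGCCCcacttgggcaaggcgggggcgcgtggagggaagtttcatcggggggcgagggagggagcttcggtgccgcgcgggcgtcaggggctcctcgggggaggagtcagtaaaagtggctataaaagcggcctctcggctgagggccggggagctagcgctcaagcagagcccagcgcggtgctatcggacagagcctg
ITGB5: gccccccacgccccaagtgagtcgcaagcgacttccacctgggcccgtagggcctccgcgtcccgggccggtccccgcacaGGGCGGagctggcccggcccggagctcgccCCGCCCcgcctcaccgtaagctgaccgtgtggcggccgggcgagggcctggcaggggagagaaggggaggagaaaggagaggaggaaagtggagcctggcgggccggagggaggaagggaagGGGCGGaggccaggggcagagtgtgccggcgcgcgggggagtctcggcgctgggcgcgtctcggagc
FN1 held 6 GC boxes, CEMIP 3, ITGB5 3 and TNC 1, and the windows were 76.7%, 73%, 75.7% and 57.3% G and C. None of the 4 windows held the core of the hypoxia response element (ACGTG), the AP-1 site (TGANTCA) or the TEAD site (GGAATG) on either strand.

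A window was found for 38 of the 44 genes. GGGCGG occurred in 31 of them (81.6%), against 45% of all 35116 windows. The windows of all genes were not limited by kind of gene or by GC content. The higher share is therefore not shown to be particular to matrix genes. ACGTG occurred in 6 (15.8%), against 21.4% of all windows: MMP14, COL5A1, COL12A1, ITGA6, CD44 and VIM. TGANTCA occurred in 4 (10.5%), against 7.71%: MMP7, LAMA3, LAMB3 and ITGA5. GGAATG occurred in 5 (13.2%), against 14%: THBS1, SPARC, CTGF, COL12A1 and ITGA5. A match of letters is a description and not a bound site.

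Of the 6 tested glycoproteins, FN1 and TNC were called in the corrected fit and 4 were not. TGFBI had 529.8, 549 and 551 CPM in the EGLN3 libraries, against 592, 652 and 613 CPM in the control libraries. Its groups were apart, with means of 543 ± 11.7 CPM in the EGLN3 libraries and 619 ± 30.4 CPM in the control libraries (SD, n = 3 each), and its log2 fold change was -0.19 (SE 0.12) without correction and -0.17 (SE 0.04) in the corrected fit. CYR61 had 32.9, 28.2 and 26.0 CPM in the EGLN3 libraries, against 22.8, 27.4 and 28.5 CPM in the control libraries, and a corrected log2 fold change of 0.17 (SE 0.07) that did not pass the test. THBS1, which inhibits angiogenesis, had 16.0, 27.9 and 33.7 CPM in the EGLN3 libraries, against 31.8, 23.4 and 14.5 CPM in the control libraries. Its groups overlapped over most of their range, and its corrected log2 fold change was 0.05 (SE 0.09). CTGF had log2 fold changes of 0.02 (SE 0.15) without correction and 0.04 (SE 0.09) with it.

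MMP14, which cleaves collagen at the cell surface and activates other proteases, had 27.3, 32.3 and 30.9 CPM in the EGLN3 libraries, against 38.3, 39.0 and 38.1 CPM in the control libraries. The control libraries lay within 1 CPM of each other and all EGLN3 libraries were below them. The log2 fold change was -0.35 (SE 0.12) without correction and -0.24 (SE 0.07) in the corrected fit, where it was not called. MMP7, a secreted protease of glandular epithelium, had 1.32, 0.711 and 0.437 CPM in the EGLN3 libraries, against 1.16, 1.53 and 0.565 CPM in the control libraries. At these low counts the groups overlapped, and the log2 fold change was -0.41 (SE 0.53) without correction.

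None of the 6 laminin chains was called in either fit with all libraries, and for each the groups overlapped. LAMB3, the chain with the highest level, had a log2 fold change of -0.01 (SE 0.13) without correction and 0.11 (SE 0.05) in the corrected fit. With a library left out the corrected value ran from 0.05 to 0.17, and without control replicate 2 LAMB3 was called higher, with adjusted p = 0.021 by the edgeR quasi-likelihood test. LAMA5 had 518, 673 and 746 CPM in the EGLN3 libraries, against 905, 701 and 649 CPM in the control libraries, and a log2 fold change of -0.22 (SE 0.20) without correction and -0.09 (SE 0.04) in the corrected fit. The other 4 lay between -0.17 (LAMB1) and 0.06 (LAMB2) in the corrected fit, with LAMA3 and LAMC1 both at -0.05. LAMA5 and LAMB1 overlap ADRM1 and DLD on the other strand.

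Both tested proteoglycans of the basement membrane had negative log2 fold changes in either fit, and neither was called. AGRN had 860.2, 1025 and 1014 CPM in the EGLN3 libraries, against 1369, 1189 and 1045 CPM in the control libraries. Every EGLN3 library was lower, by means of 966 ± 92 CPM in the EGLN3 libraries and 1200 ± 162 CPM in the control libraries (SD, n = 3 each), and the log2 fold change was -0.31 (SE 0.16) without correction and -0.16 (SE 0.04) in the corrected fit. HSPG2 had 45.2, 152 and 196 CPM in the EGLN3 libraries, against 237, 117 and 86.4 CPM in the control libraries. Its range within either group exceeded the difference between the group means, and its log2 fold change was -0.16 (SE 0.58) without correction and -0.20 (SE 0.05) in the corrected fit.

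No collagen was called in either fit, while 4 of the 8 tested lay below in every EGLN3 library, against 3.62% of all tested genes. In the wider family of 19 tested collagen genes it was the same 4 below and 1 (COL4A4) above, against 2.64% above over all tested genes. COL6A1 and COL17A1 overlapped with RLE scaling, and with the GC and length trends taken out COL17A1 alone of the 4 stayed apart. COL18A1, which releases endostatin when cleaved, had 30.3, 37.8 and 35.0 CPM in the EGLN3 libraries, against 43.1, 46.2 and 41.4 CPM in the control libraries. Its log2 fold change was -0.34 (SE 0.14) without correction and -0.19 (SE 0.07) in the corrected fit. It overlaps SLC19A1 on the other strand over 20149 bases. COL17A1 had 14.4, 20.3 and 18.4 CPM in the EGLN3 libraries, against 25.3, 22.9 and 20.3 CPM in the control libraries, and a log2 fold change of -0.37 (SE 0.17) without correction and -0.31 (SE 0.09) in the corrected fit.

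COL1A1, a chain of type I collagen, had 3.69, 4.39 and 3.996 CPM in the EGLN3 libraries, against 4.77, 4.79 and 5.15 CPM in the control libraries. COL6A1, a chain of microfibrillar collagen, had 2.77, 3.02 and 2.12 CPM in the EGLN3 libraries, against 3.03, 3.07 and 3.08 CPM in the control libraries. Both were apart between the groups at levels of a few CPM, with corrected log2 fold changes of -0.16 (SE 0.17) and -0.06 (SE 0.21). COL12A1, a collagen that sits on fibrils, had 0.989, 1.30 and 2.37 CPM in the EGLN3 libraries, against 1.51, 1.28 and 0.565 CPM in the control libraries. Its log2 fold change of 0.47 (SE 0.49) without correction was the largest positive value of the 40 and smaller than its SE. COL7A1, COL4A2 and COL5A1 had corrected log2 fold changes of 0.20 (SE 0.15), 0.07 (SE 0.17) and 0.02 (SE 0.36).

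Of the 11 integrin subunits, ITGB5 was called in the corrected fit and 10 were not. Of the hemidesmosome chains, ITGB4 had 538, 582 and 583 CPM in the EGLN3 libraries, against 713, 679 and 611 CPM in the control libraries, while ITGA6 had 427, 738 and 839 CPM in the EGLN3 libraries, against 819.9, 611 and 508 CPM in the control libraries. The groups did not overlap for ITGB4 and overlapped for ITGA6. Once corrected, their log2 fold changes were -0.09 (SE 0.04) and -0.07 (SE 0.04), against -0.23 (SE 0.13) and 0.05 (SE 0.30) without correction. ITGA3, which joins ITGB1 to bind laminins, had 559, 599 and 609 CPM in the EGLN3 libraries, against 729, 675 and 636 CPM in the control libraries. Its log2 fold change was -0.21 (SE 0.13) without correction and -0.08 (SE 0.04) in the corrected fit.

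ITGAV, the alpha chain that joins ITGB5, had 51.1, 82.7 and 109 CPM in the EGLN3 libraries, against 99.0, 61.8 and 54.1 CPM in the control libraries, with a log2 fold change of 0.18 (SE 0.34) without correction and 0.01 (SE 0.06) in the corrected fit. ITGB8, another beta chain that joins ITGAV and activates latent TGF-beta, had 48.9, 88.0 and 111 CPM in the EGLN3 libraries, against 93.3, 56.8 and 51.2 CPM in the control libraries, with a log2 fold change of 0.30 (SE 0.36) without correction and 0.12 (SE 0.05) in the corrected fit. Both ITGAV and ITGB8 were lowest in EGLN3 replicate 1 and highest in EGLN3 replicate 3, and their groups overlapped. ITGB6 was at 0.03 (SE 0.05) in the corrected fit. The remaining chains ITGA1, ITGA2, ITGA5 and ITGB1 were at -0.19 (SE 0.05), -0.05 (SE 0.05), 0.03 (SE 0.07) and -0.12 (SE 0.04). ITGA1 holds PELO within its bounds on the same strand, over 16107 bases, so its counts are uncertain.

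SDC1 had 411, 349.8 and 315 CPM in the EGLN3 libraries, against 373, 419 and 401 CPM in the control libraries, and a log2 fold change of -0.15 (SE 0.15) without correction and -0.02 (SE 0.04) in the corrected fit. SDC4, a focal adhesion co-receptor, varied least of the 40 genes, 1.12-fold over the 6 libraries, with a corrected log2 fold change of 0.03 (SE 0.04). CD44 had -0.02 (SE 0.05). VIM had 2.24, 0.771 and 0.874 CPM in the EGLN3 libraries, against 0.931, 1.53 and 1.70 CPM in the control libraries, so EGLN3 replicate 1 was the highest of all libraries, and its corrected log2 fold change was -0.17 (SE 0.31). None of these 4 genes was called in either fit.

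Genes around the matrix receptors were counted from lists of related functions, and edgeR without correction called none of them. Over all tested genes the corrected fit called 0.674% lower and 0.375% higher. Of 30 adhesion adaptors, which link integrins to actin or keratin, 1 fell in the corrected fit, the actin crosslinker ACTN1, with 252, 277 and 256 CPM in the EGLN3 libraries, against 321, 293 and 284 CPM in the control libraries and adjusted p = 0.0425 by the edgeR quasi-likelihood test. Of 19 tested genes of collagen folding and crosslinking, 0 were called in the corrected fit and 5 lay below and 1 (P3H2) above in every EGLN3 library, against 3.62% below and 2.64% above over all tested genes. The lysyl hydroxylase PLOD1 was among the 5, with 47.4, 43.2 and 37.8 CPM in the EGLN3 libraries, against 51.8, 59.3 and 52.2 CPM in the control libraries. Of 14 tested genes of matrix turnover 1 fell, the hyaluronan synthase HAS2, at -0.23 (SE 0.06) with adjusted p = 0.0474. Of 21 tested YAP and TEAD factors and targets 1 fell, CRIM1, at -0.22 (SE 0.05) with adjusted p = 0.0447. Of 10 further receptors 1 fell, RPSA, known as a laminin receptor and ribosomal protein with many pseudogenes that may share its reads, at -0.18 (SE 0.04) with adjusted p = 0.0378. None of the genes on these lists was called higher in the corrected fit. The median corrected log2 fold change was -0.01 for the adaptors, -0.03 for collagen folding, -0.06 for turnover, 0 for YAP and TEAD and -0.03 for the receptors, against 0 over all genes.

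The smallest unadjusted p on each list without correction fell on genes that were not called. Among the adaptors these were the kindlin FERMT2 at 0.78 (SE 0.39) and the kinase SRC at -0.24 (SE 0.13). FERMT2 averaged only 0.152 FPKM, with 25, 20 and 34 counts in the EGLN3 libraries and 22, 16 and 9 counts in the control libraries. Its groups overlapped. PLOD1, at -0.35 (SE 0.14), and the prolyl hydroxylase P3H1, at -0.33 (SE 0.17), came first among the genes of collagen folding. MMP15 and MMP28 in turnover were at -0.26 (SE 0.16) and -0.36 (SE 0.26), and TEAD2 and ANKRD1 at -0.19 (SE 0.15) and -0.13 (SE 0.14). The collagen receptor kinase DDR1 was at -0.16 (SE 0.12) and the glypican GPC1 at -0.19 (SE 0.16). In the wider collagen family, COL4A4 had 1.06, 2.67 and 1.44 CPM in the EGLN3 libraries, against 0.931, 0.702 and 1.004 CPM in the control libraries. Every EGLN3 library of COL4A4 lay above every control library, with a log2 fold change of 0.97 (SE 0.42) without correction. COL6A6 had 0.264, 0.593 and 0.250 CPM in the EGLN3 libraries, against 1.28, 0.447 and 0.879 CPM in the control libraries. Both collagens stayed under 3 CPM in each library, where counts are few. LAMA2, at 0.25 (SE 0.27), and the leukocyte integrins ITGAX and ITGB2, at -0.45 (SE 0.34) and -0.31 (SE 0.25), all had overlapping groups.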

How the data were processed

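RNA of NCI-N87 was sequenced as 3 EGLN3 and 3 control libraries, grouped by title and genotype. The deposited counts are whole reads per gene, unscaled. The deposited FPKM equal these counts divided by the deposited gene length and by 1 factor per library. HISAT2 2.0.5, featureCounts 1.5.0-p3, DESeq2 1.20.0 and hg38 are named, with no role, per the submitters' processing notes. The annotation and strand setting were not given in the sources used here. Totals of 15157265 to 16767383 counts per library set the precision of low genes.

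Counts passing filterByExpr were scaled by TMM (factors 0.9187 to 1.059) and tested with edgeR 4.0.16 (quasi-likelihood, robust) in R 4.3.3, with Benjamini-Hochberg adjustment over 15726 genes. The corrected fit added 1 surrogate variable (sva 3.50.0) and offsets from splines with 5 degrees of freedom on GC content (GENCODE 29 transcripts, held by 99.96% of genes) and length. It left 3 residual degrees of freedom, against 4. Both fits were also run on counts simulated from the model of the corrected fit. Such counts cannot show whether the SEs of that fit are too small for the real libraries. Alternatives were DESeq2 1.42.0, limma 3.58.1 (voom, or log2 FPKM with a pseudocount of 1 or 0.1, and 0.5 FPKM in 3 libraries or no such minimum), RLE scaling, other filters, the replicate block, which side of the first axis a library fell on and leaving out each library. Within groups, chi-square per degree of freedom was 8.98 to 118, so no library repeated another and each counted as 1 replicate.

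Full values are given for genes called in either fit, the 2 highest of each role by FPKM, those whose groups do not overlap, and the 5 largest falls and rises without correction. From other lists, genes called in either fit or among the 2 smallest p are named. ITGA2, ITGB1 and P3H2 are named outside this rule, chosen after their values were seen. One gene the rule names is not reported here. The genes, lists and the corrected fit were chosen with earlier results of these data known. Promoter windows come from RefSeq.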

Additional observations from a re-analysis of the deposited data

How the results depend on the processing

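No alternative to the fit without correction called any of the 40 genes, and the median log2 fold change stayed negative in every alternative run, from -0.17 to -0.02 with a library left out (-0.08 to -0.07 in the corrected fit). Calls over all genes without correction numbered 1, and 0 with the replicate block, with the block and the trends, and with limma on log2(FPKM + 1) with or without a minimum; 0 to 1 with a library left out. Same-numbered libraries deviated against each other within their groups (correlations -0.793, -0.176 and -0.674), so the main spread between libraries did not follow the numbers. A smaller effect shared by same-numbered libraries could not be seen in this check.

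In the corrected fit the 4 calls became 13 with the surrogate variable alone and 0 with the trends alone, and 1 to 5 with a library left out: 1 without EGLN3 replicate 1 and 2 without EGLN3 replicate 2 or 3. Over all genes, 165 calls became 713, 1, and 50 to 270. The 10 genes with no overlap became 5 with the trends taken out, and 8 to 11 with a library left out, where the share over all genes was 4.44% to 14.2%; without EGLN3 replicate 1 it was 10 lower and 2 higher, against 14.2% and 14.5%. These settings were chosen after seeing the data.

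Signs turned for the genes below, and no cause was tested. With the block and the trends LAMB3 was 0.11 and ITGA6 -0.05. With a term for which side of the first axis a library fell on, LAMB3 was 0.01, ITGA6 -0.22, VIM 0.21, ITGB8 -0.02, ITGAV -0.11 and THBS1 -0.14. With the surrogate variable alone LAMB3 was -0.01. Leaving out a library moved uncorrected CEMIP from -0.42 to 0.04, FN1 -0.36 to 0.21, HSPG2 -0.57 to 0.36, ITGA6 -0.15 to 0.3, ITGAV -0.1 to 0.48, LAMB3 -0.06 to 0.07, SDC4 -0.01 to 0.06, THBS1 -0.1 to 0.45 and VIM -0.73 to 0.17, and corrected COL1A1 -0.24 to 0.01, COL6A1 -0.19 to 0.07, ITGAV -0.08 to 0.08 and THBS1 -0.05 to 0.14. For the 4 untested genes, with at most 8 counts in a library, a difference was not detectable at this depth.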
